A study of Homo sapiens with 18 samples.

Results

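The expression of 10 genes of cystine import, glutathione turnover and ferroptosis defence was followed in xenograft tumours. The tumours were of a PTDSS2 knockout of HCT116, a human cell line established from a colon cancer. The genes were taken by name: SLC7A11, CTH, GCLC, GCLM, GSS, CHAC1, CHAC2, GPX4, ACSL4 and AIFM2, all 10 found among the 25343 human genes of the deposited tables and all 10 among the 14074 with enough counts to be tested. Mice received vehicle, or the compound DS55980254 at 10 mg/kg or 30 mg/kg, orally in 0.5% methylcellulose. Tumour RNA dates from 24 hours later, with 6 libraries in each group. The knockout was shared by every group, vehicle included, so no comparison here shows what the loss of PTDSS2 does. The series concerns inhibition of PTDSS1, the other phosphatidylserine synthase, in cells without PTDSS2. The labels give no age, sex or strain of the mice, do not say whether the knockout line is 1 clone, and do not tie libraries to separate mice, so p-values measure the spread between these libraries.

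Glutathione is made from glutamate, cysteine and glycine, and cysteine is usually the limiting part. Cells import it as cystine through SLC7A11 or make it from methionine through CTH. Glutathione is the electron donor with which GPX4 reduces lipid hydroperoxides in membranes, and when that defence fails, oxidised polyunsaturated phospholipids accumulate and cells die by ferroptosis. ACSL4 favours this death by loading polyunsaturated fatty acids into phospholipids, whereas AIFM2 (FSP1) opposes it through reduced ubiquinone. In cancer cells short of amino acids or under endoplasmic reticulum stress, the transcription factor ATF4 is known to drive SLC7A11, CTH and CHAC1, and NRF2 is known to drive SLC7A11, GCLC and GCLM.

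Counts assigned to human genes totalled 3435435 to 8538793 in 17 libraries and 433989 in 10 mg/kg replicate 2. That shallow library had a mean correlation of 0.726 with the others on the log2 scale, against 0.942 to 0.954 for the other 17. Next lowest were 30 mg/kg replicate 5 (0.942) and 10 mg/kg replicate 4 (0.944). Epithelial markers such as EPCAM, KRT8 and KRT19 were abundant, with a summed level of the list whose median was 6036, 6027 and 6086 CPM (counts scaled to library size by TMM) at vehicle, 10 mg/kg and 30 mg/kg, although CEACAM6 was at 0 in all vehicle libraries. Human-assigned counts on 10 fibroblast, 9 endothelial and 10 leukocyte markers summed to at most 112, 28.8 and 24.8 CPM in the vehicle and 30 mg/kg groups. They reached 379, 156 and 116 CPM in 10 mg/kg replicate 2. In 10 mg/kg replicate 4 the endothelial and leukocyte sums were 33.3 and 30.1 CPM, while the fibroblast sum, 98.4 CPM, was within the vehicle range. Of the fibroblast markers, COL1A1 alone averaged 86.8 CPM with vehicle. The fibroblast marker DCN and the endothelial marker EMCN were at 0 in all vehicle libraries. In bulk tumour RNA, fewer cells of a type and less RNA per cell cannot be told apart. PTDSS2 transcripts were still counted, at 8.75 ± 2.30 CPM with vehicle (SD, n = 6). Without tumours of the unedited line this does not check the knockout.

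Of the 10 genes, CHAC1 rose at both doses and SLC7A11 rose at 30 mg/kg, and none fell. At 10 mg/kg, 1 of 10 passed the threshold (edgeR quasi-likelihood test, Benjamini-Hochberg adjusted p under 0.05 over all genes tested), and at 30 mg/kg 2 of 10 passed, all upwards. Over all genes tested, 0.469% passed at 10 mg/kg (0.419% upwards) and 0.618% at 30 mg/kg (0.568% upwards). The 10 genes were chosen with earlier results of these data known. Setting them beside all genes, here and below, is therefore a description and not a test. The median log2 fold change of the 10 genes was 0.08 at 10 mg/kg and 0.21 at 30 mg/kg, beside -0.006 and -0.001 over all genes tested. The estimate was above 0 for 7 of the 10 genes at 10 mg/kg, against 48.8% of all genes tested, and for all 10 at 30 mg/kg, against 49.8%. At 30 mg/kg 8 of them did not pass, and the estimates of CHAC2 and GPX4 were below 0 in 5 and 4 of 30 alternatives. Both doses were compared with the same 6 vehicle libraries, so a shift in those libraries enters both comparisons. Between 30 and 10 mg/kg none of the 10 genes passed, and 0% of all genes did by edgeR, with 496 genes at an unadjusted p under 0.05 and the smallest adjusted p at 0.969.

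**Figure D1:**
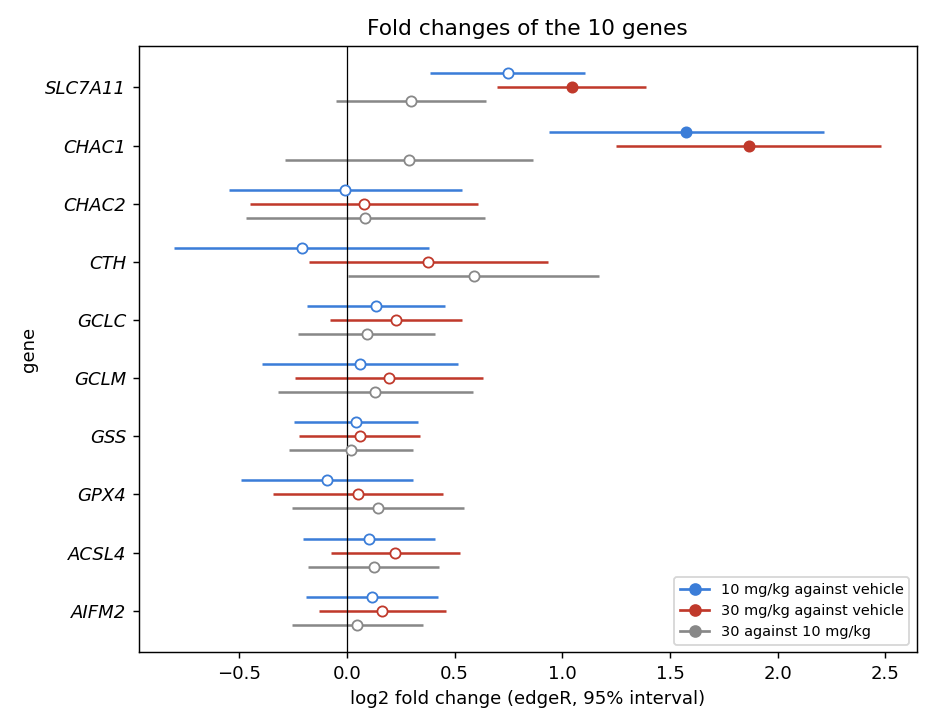
Log2 fold change (horizontal axis) of each of the 10 genes (vertical axis) from the edgeR fit, with 95% intervals, for 10 mg/kg and 30 mg/kg against vehicle and for 30 against 10 mg/kg. Filled points passed an adjusted p of 0.05: CHAC1 at both doses and SLC7A11 at 30 mg/kg; every interval of the other 8 genes against vehicle includes 0.

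The bases before the start of CHAC1, the gene that moved most, are shown beside those of its paralogue CHAC2, which did not pass, and of GCLM, to show where matches to response elements lie. They are from RefSeq (GRCh38.p14), 250 bases each, read 5′ to 3′ along the gene's strand and ending at the base before the annotated start. CHAC1 is from chr15:40953221-40953470 on the plus strand, CHAC2 from chr2:53767533-53767782 on the plus strand and GCLM from chr1:93909431-93909680 on the minus strand. Capitals mark a match to TGATGNAA, the core of the C/EBP-ATF element that ATF4 can bind, in CHAC1, and to TGACNNNGC, the core of the antioxidant response element that NRF2 can bind, in GCLM; both lie on the strand opposite to the one printed.
CHAC1: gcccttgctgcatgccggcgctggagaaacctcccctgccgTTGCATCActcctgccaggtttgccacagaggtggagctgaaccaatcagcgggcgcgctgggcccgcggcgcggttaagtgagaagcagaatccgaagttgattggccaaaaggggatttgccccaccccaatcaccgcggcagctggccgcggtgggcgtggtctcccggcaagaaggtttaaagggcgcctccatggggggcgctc
CHAC2: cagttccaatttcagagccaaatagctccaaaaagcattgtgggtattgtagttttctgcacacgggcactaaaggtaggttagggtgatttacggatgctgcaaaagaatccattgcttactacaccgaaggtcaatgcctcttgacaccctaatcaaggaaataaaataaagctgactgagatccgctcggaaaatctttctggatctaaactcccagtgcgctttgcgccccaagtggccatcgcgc
GCLM: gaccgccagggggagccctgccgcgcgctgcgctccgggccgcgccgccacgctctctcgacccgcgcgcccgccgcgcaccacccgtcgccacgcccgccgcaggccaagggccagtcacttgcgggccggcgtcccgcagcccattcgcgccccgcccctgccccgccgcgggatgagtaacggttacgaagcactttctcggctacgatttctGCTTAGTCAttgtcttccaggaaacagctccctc

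Windows of 250 bases before to 50 after the start were found for 8 of the 10 genes, the exceptions being SLC7A11 and GSS. TGATGNAA, searched on both strands, occurs in 3.62% of 35116 such windows of all genes. Of the 8 genes, CHAC1 alone held it, as TTGCATCA, with its first base 209 bases before the start. TGACNNNGC occurs in 13.3% of windows and was found in GCLM (GCTTAGTCA, 34 bases before the start) and AIFM2 (GCTGAGTCA, 22 bases before). The sterol regulatory element TCACNCCAC (1.13% of windows) and the cyclic AMP response element TGACGTCA (1.85%) were not in the windows of the 8 genes. A match is a description of the letters, and no binding was measured.

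SLC7A11 (Entrez gene 23657) encodes the transport subunit of the cystine-glutamate exchanger system xc-. Its level was 16.3, 23.1 and 33.9 CPM (lowest, median and highest of 6) with vehicle, 29.7, 39.1 and 56.9 CPM with 10 mg/kg and 40.7, 51.7 and 61.6 CPM with 30 mg/kg. All 6 libraries at 30 mg/kg lay above every vehicle library, while at 10 mg/kg replicate 1 fell within the vehicle range and the other 5 lay above it. At 30 mg/kg SLC7A11 rose 2.06-fold (log2 fold change 1.04, SE 0.17, edgeR adjusted p = 0.00126). The estimate at 10 mg/kg was 1.68-fold (0.75, SE 0.17, edgeR adjusted p = 0.0551), which did not pass; without 10 mg/kg replicate 2 it did (0.73, edgeR adjusted p = 0.0340), and without the 3 least alike libraries it did not (0.76, adjusted p = 0.0542). The difference between the doses was 0.30 (95% interval -0.05 to 0.64), and it did not pass (edgeR adjusted p = 0.969). Of all genes tested, 0.327% had a higher log2 fold change at 30 mg/kg than SLC7A11.

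CHAC1 (Entrez gene 79094) encodes a gamma-glutamylcyclotransferase that cleaves glutathione inside the cell. It had the lowest mean of the 10 genes in vehicle tumours, at 1.23, 2.35 and 2.74 CPM (lowest, median and highest), resting on 5 to 13 counts per library. With 10 mg/kg it was 4.28, 5.70 and 10.1 CPM, and at 30 mg/kg 4.03, 7.72 and 14.0 CPM. Every treated library lay above every vehicle library at both doses, and the ranges of the doses overlapped. CHAC1 rose 2.98-fold at 10 mg/kg (log2 fold change 1.58, SE 0.31, edgeR adjusted p = 0.0149) and 3.64-fold at 30 mg/kg (1.87, SE 0.30, edgeR adjusted p = 0.00125). The difference between the doses was 0.29 (95% interval -0.29 to 0.86). Of all genes tested, 0.0213% had a higher log2 fold change at 30 mg/kg.

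The CHAC1 counts were low. The lowest value at 10 mg/kg, in replicate 2, rests on 2 counts. The highest in each dosed group, 10.1 CPM in 10 mg/kg replicate 4 and 14.0 CPM in 30 mg/kg replicate 5, came from the other pair of libraries least like the rest. Without these 3 libraries CHAC1 was 6.07 ± 0.989 CPM at 10 mg/kg (SD, n = 4) and 7.01 ± 1.94 CPM at 30 mg/kg (SD, n = 5), beside 2.21 ± 0.609 CPM with vehicle (SD, n = 6), and the log2 fold changes were 1.44 and 1.66 (edgeR adjusted p = 0.0106 and 0.000752). The rise at 10 mg/kg did not pass without vehicle replicate 5, the lowest vehicle library (1.46, edgeR adjusted p = 0.0505), nor in limma-trend on log2(TPM + 1) (1.18, adjusted p = 0.0902).

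Every library of the dosed group lay above every vehicle library for 1 of the 10 genes at 10 mg/kg and for 2 at 30 mg/kg. Over all genes tested this held for 0.689% and 1.25%. No gene of the 10 had a dosed group wholly below vehicle. Among all 14074 genes tested, 66 had such a group at 10 mg/kg and 67 at 30 mg/kg. Such genes were rare, so their absence among these 10 does not set the 10 apart.

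**Figure D2:**
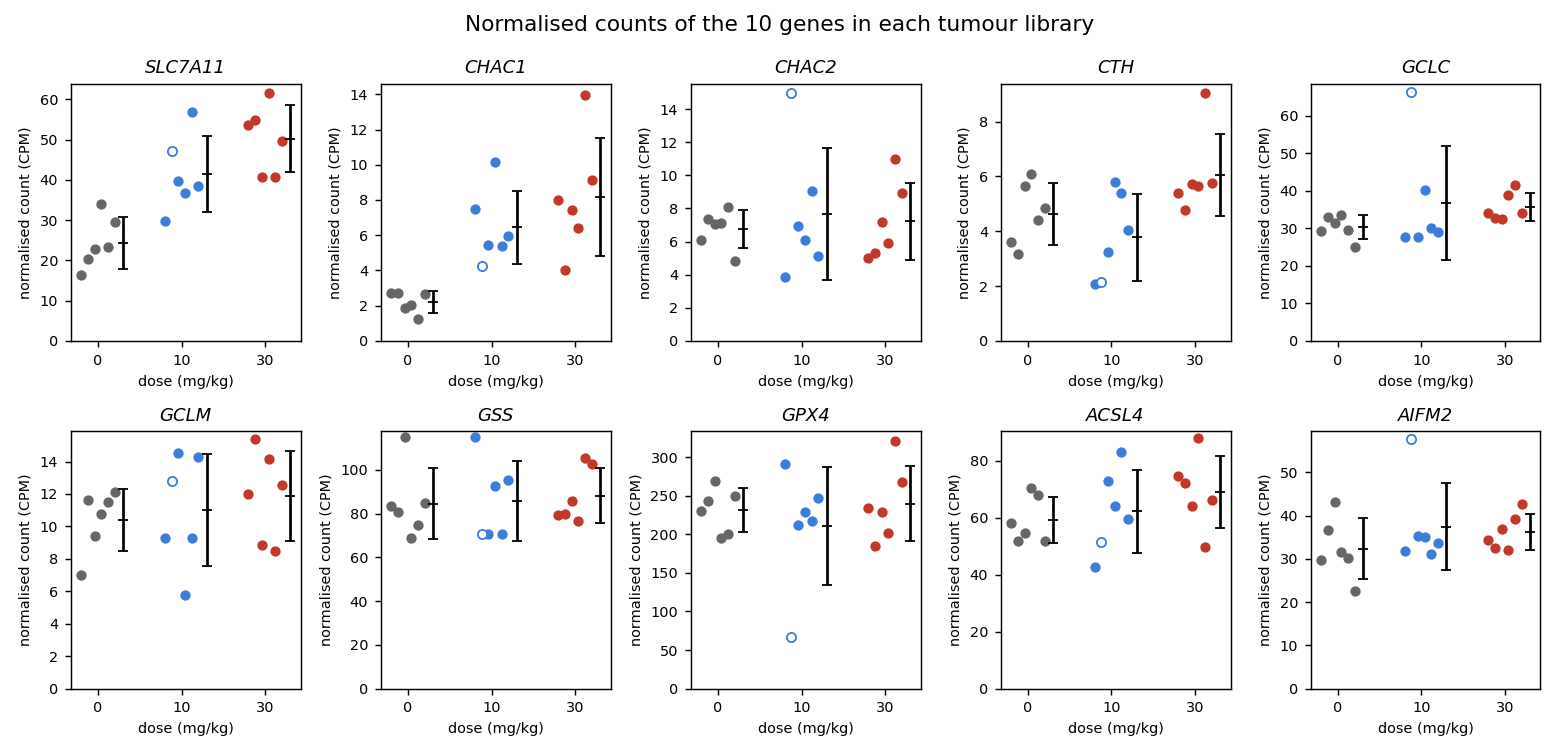
Normalised count (CPM, vertical axis of each panel, from 0) of each of the 10 genes in all 18 libraries by dose of DS55980254 (horizontal axis, 0 being vehicle); points are libraries, the open point is the shallow 10 mg/kg replicate 2, and bars are the mean and SD of 6 libraries. SLC7A11 and CHAC1 separate 30 mg/kg from vehicle completely, and the open point is an extreme of its group for CHAC1, CHAC2, GCLC, GPX4 and AIFM2.

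CHAC2 encodes the paralogue of CHAC1, which cleaves glutathione more slowly and is known as the constitutive form. Its level was 4.85, 7.08 and 8.09 CPM (lowest, median and highest) with vehicle, 3.88, 6.51 and 15.0 CPM with 10 mg/kg and 5.03, 6.54 and 11.0 CPM at 30 mg/kg. The groups overlapped throughout, and the log2 fold changes were -0.01 (95% interval -0.55 to 0.53) at 10 mg/kg and 0.08 (-0.45 to 0.61) at 30 mg/kg. These intervals end below the lower bounds of CHAC1, 0.94 and 1.25, although the difference between the genes was not itself tested. The highest CHAC2 value, in 10 mg/kg replicate 2, rests on 7 counts, and without that library the estimate at 10 mg/kg was -0.12. Without the 3 least alike libraries the estimate at 30 mg/kg was -0.07.

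On the TPM scale, which corrects for transcript length, the ratio of CHAC1 to CHAC2 was 0.283 ± 0.113 with vehicle (SD, n = 6), from 0.123 to 0.445. It was 0.914 ± 0.227 at 30 mg/kg (SD, n = 6), from 0.617 to 1.29, so every library at 30 mg/kg was above every vehicle library. At 10 mg/kg it was 0.870 ± 0.511 (SD, n = 6), with 10 mg/kg replicate 2 within the vehicle range at 0.254 and the other 5 from 0.481 to 1.56. CHAC2 was the more abundant paralogue in all vehicle libraries, and both were at closer levels in all dosed libraries but 10 mg/kg replicate 2.

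**Figure D3:**
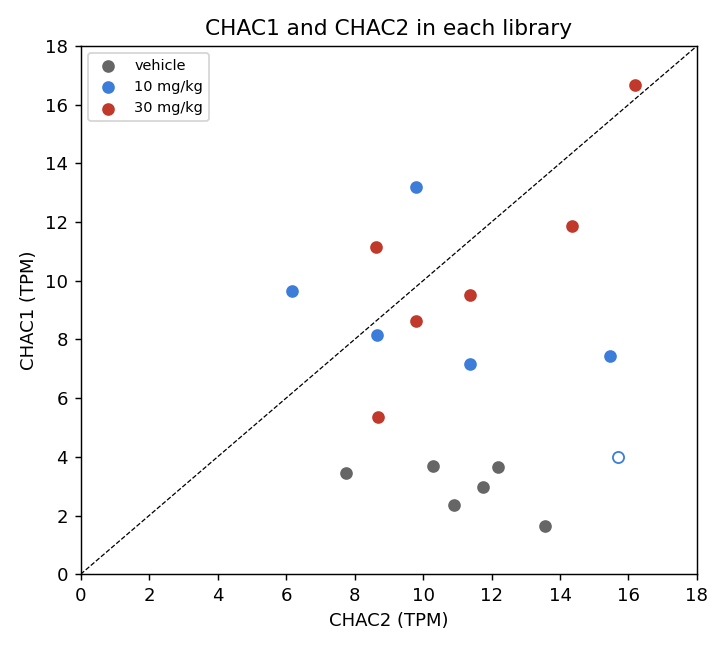
CHAC1 (vertical axis) against CHAC2 (horizontal axis) in TPM, on equal axes, in each of the 18 libraries; the dashed line marks equal levels and the open point is 10 mg/kg replicate 2. Vehicle libraries lie lowest, with ratios of 0.123 to 0.445, and those at 30 mg/kg have ratios of 0.617 to 1.29.

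CTH encodes cystathionine gamma-lyase, which releases cysteine in the last step of its synthesis from methionine. Its level was 3.17, 4.63 and 6.10 CPM with vehicle, 2.07, 3.65 and 5.79 CPM with 10 mg/kg and 4.79, 5.70 and 9.04 CPM at 30 mg/kg (lowest, median and highest). The estimates against vehicle had opposite signs, -0.21 (95% interval -0.80 to 0.38) at 10 mg/kg and 0.38 (-0.18 to 0.93) at 30 mg/kg, and neither passed (edgeR adjusted p = 0.847 and 0.854). Between the doses the log2 difference was 0.59 (0.005 to 1.17), at an unadjusted p of 0.0482 and an edgeR adjusted p of 0.969. All 6 libraries at 30 mg/kg were above the 10 mg/kg median, but only replicate 5 was above the highest library of that group. In 10 mg/kg replicate 2 the value rests on 1 count. CBS, which makes the substrate of CTH, had too few counts to be tested, with 5 counts over the 6 vehicle libraries.

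The enzymes of glutathione synthesis did not pass at either dose. GCLC and GCLM encode the catalytic and modifier subunits of glutamate-cysteine ligase, the rate-limiting step, and GSS encodes glutathione synthetase, which adds glycine. GCLC was 25.0, 30.6 and 33.5 CPM with vehicle, 27.7, 29.6 and 66.3 CPM with 10 mg/kg and 32.5, 34.0 and 41.6 CPM at 30 mg/kg (lowest, median and highest). Here 4 of 6 libraries at 30 mg/kg were above the highest vehicle library, with a log2 fold change of 0.23 (95% interval -0.08 to 0.53, edgeR adjusted p = 0.830). The GCLC estimate at 10 mg/kg was 0.13 (-0.19 to 0.45), with replicate 2 the highest library. It was 0.02 without that library and -0.08 without the 3 least alike libraries. GCLM was 7.01, 11.2 and 12.1 CPM with vehicle and 8.49, 12.3 and 15.4 CPM at 30 mg/kg, with a log2 fold change of 0.19 (-0.24 to 0.63, edgeR adjusted p = 0.942). GCLM at 10 mg/kg was 5.79, 11.1 and 14.5 CPM, wider than the vehicle range on both sides, with a log2 fold change of 0.06 (-0.39 to 0.52). GSS was 68.7, 82.0 and 115 CPM with vehicle, 70.5, 81.7 and 115 CPM with 10 mg/kg and 76.8, 82.8 and 105 CPM at 30 mg/kg, with medians that were nearly the same. Its log2 fold changes were 0.04 (-0.25 to 0.33) and 0.06 (-0.22 to 0.34). The ratio of GCLC to GCLM in TPM was 2.43 ± 0.581, 2.99 ± 1.59 and 2.55 ± 0.785 at vehicle, 10 and 30 mg/kg (SD, n = 6 each), with overlapping ranges.

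GPX4, the selenoprotein that reduces phospholipid hydroperoxides, was 195, 236 and 270 CPM with vehicle (lowest, median and highest), 66.3, 223 and 290 CPM with 10 mg/kg and 185, 231 and 321 CPM at 30 mg/kg. The log2 fold change at 30 mg/kg was 0.05 (95% interval -0.35 to 0.45, edgeR adjusted p = 0.998). The GPX4 estimate at 10 mg/kg was -0.09 (-0.49 to 0.31), and it turned to 0.05 without replicate 2, while that at 30 mg/kg turned to -0.05 without the 3 least alike libraries. GPX4 in 10 mg/kg replicate 2 was at 66.3 CPM, from 31 counts, against 212 to 290 CPM in the other 5. Apart from it, the 3 groups overlapped throughout.

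ACSL4, the acyl-CoA ligase for arachidonic and other polyunsaturated fatty acids, was 51.9, 56.4 and 70.5 CPM with vehicle, 42.7, 61.9 and 83.2 CPM with 10 mg/kg and 49.9, 69.2 and 88.1 CPM at 30 mg/kg. The log2 fold changes were 0.10 (95% interval -0.21 to 0.41) and 0.23 (-0.07 to 0.52), neither of which passed (edgeR adjusted p = 0.860 and 0.820). AIFM2, the ubiquinone oxidoreductase, was 22.6, 30.9 and 43.3 CPM with vehicle, 31.0, 34.4 and 57.8 CPM with 10 mg/kg and 32.1, 35.7 and 42.8 CPM at 30 mg/kg. All libraries of both doses were above the vehicle median, yet all at 30 mg/kg were within the vehicle range. Its log2 fold changes were 0.12 (-0.19 to 0.42), or 0.04 without 10 mg/kg replicate 2, and 0.16 (-0.13 to 0.46). These intervals do not exclude rises of AIFM2 or ACSL4 by log2 values of up to their upper bounds.

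**Figure D4:**
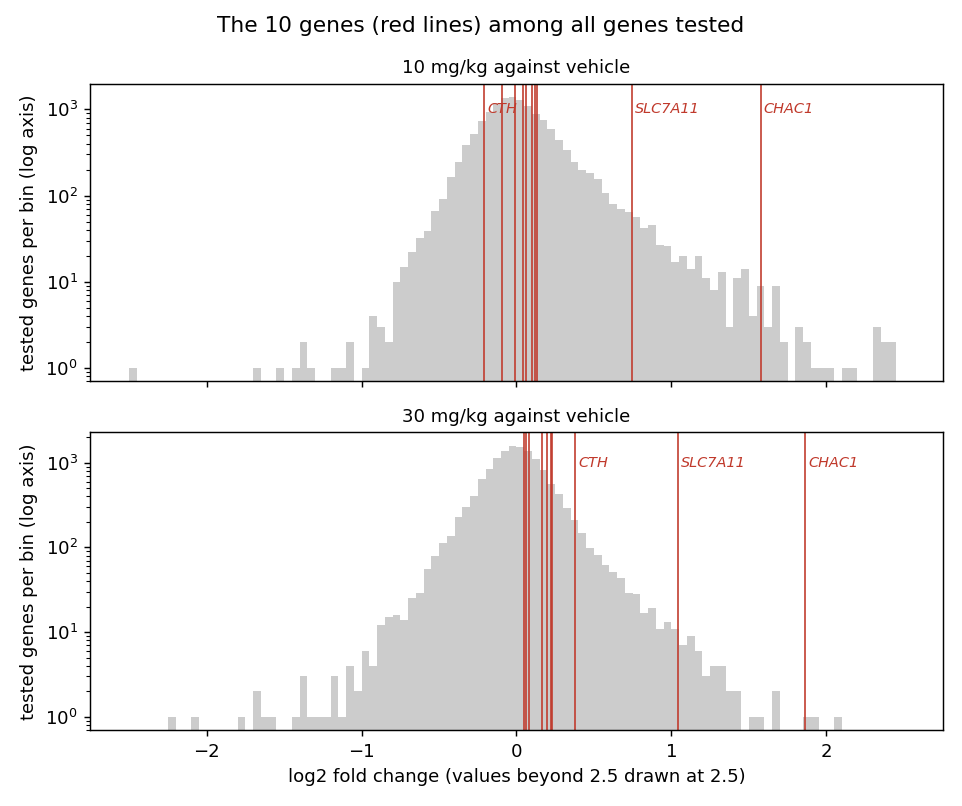
Distribution of log2 fold changes (horizontal axis) over all 14074 genes tested, as genes per bin on a log vertical axis, for 10 mg/kg (top) and 30 mg/kg (bottom) against vehicle; red lines mark the 10 genes. CHAC1 and SLC7A11 lie in the right tail at both doses, CTH lies on opposite sides of 0, and the remaining 7 lie near the centre.

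In vehicle tumours the 10 genes spanned a wide range of abundance on the TPM scale. GPX4 was highest at 523 ± 54.7 TPM (SD, n = 6), above 98.5% of all genes tested, followed by GSS at 90.6 ± 14.4 TPM. The remaining genes were ACSL4 at 23.5 ± 3.58, AIFM2 at 20.0 ± 3.98, GCLC at 16.0 ± 1.77, CHAC2 at 11.1 ± 1.97, GCLM at 6.82 ± 1.26, SLC7A11 at 5.00 ± 1.31, CTH at 4.41 ± 1.02 and CHAC1 at 2.97 ± 0.817 TPM (SD, n = 6 each). GPX4, GSS and ACSL4 did not overlap with one another, whereas from ACSL4 downwards each gene overlapped with its neighbour in this order. The genes that rose were among the 3 lowest by mean, with SLC7A11 above 14.7% and CHAC1 above 7.9% of all genes tested.

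Libraries differed in the balance between long and short genes, and some of the 10 genes moved with it. The balance was measured, after the data were seen, as the median log2 deviation of the longest genes (from 4433 bases) minus that of the shortest (up to 1883 bases). It was lowest in 30 mg/kg replicate 5 (-0.27), and the lowest of the other groups were -0.14 in vehicle replicate 3 and -0.10 in 10 mg/kg replicate 1. In these 3 libraries GPX4 (942 bases) and GSS (1900 bases) were each the highest of their group. GSS lies just above the length limit of the shortest genes, and the other genes within that limit did not all do so. CHAC2 (1275 bases) and CHAC1 (1545 bases) were highest in 30 mg/kg replicate 5. Yet CHAC2 was lowest in 10 mg/kg replicate 1, and CHAC1 was next to lowest in vehicle replicate 3. ACSL4 (5041 bases) was the lowest of its group in 30 mg/kg replicate 5 and 10 mg/kg replicate 1. SLC7A11, at 9648 bases longer than 97.5% of genes tested, was lowest in 10 mg/kg replicate 1, the library that overlapped with vehicle. In the vehicle group SLC7A11 was lowest in replicate 1, which did not have the lowest balance (0.05). At 30 mg/kg it was lowest in replicate 3 (40.7 CPM) and nearly as low in replicate 5 (40.8 CPM). Replicates 5 and 3 had the lowest and next lowest balance of the 30 mg/kg group (-0.27 and -0.12). With the balance as a covariate, SLC7A11 was 0.76 higher on the log2 scale at 10 mg/kg and 1.07 at 30 mg/kg (edgeR adjusted p = 0.0145 and 0.000164), and CHAC1 1.53 and 1.75 (edgeR adjusted p = 0.00540 and 0.000524).

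**Figure D5:**
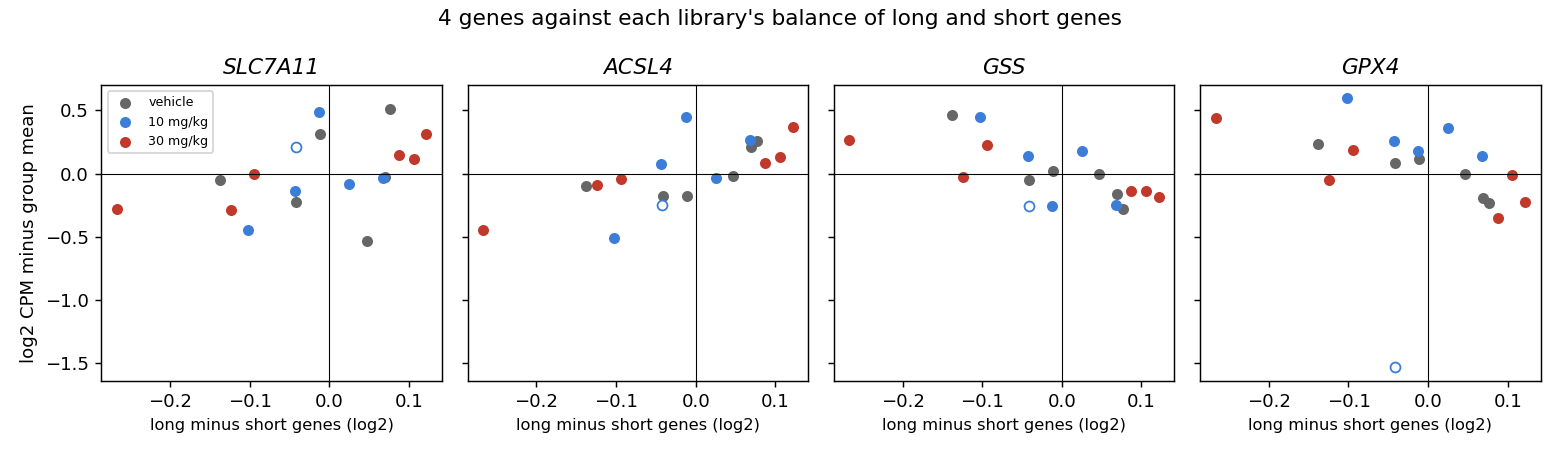
Deviation of log2 CPM from the group mean (vertical axis) against each library's log2 balance of long and short genes (horizontal axis) for SLC7A11, ACSL4, GSS and GPX4 in 18 libraries; the open point is 10 mg/kg replicate 2. The leftmost library, 30 mg/kg replicate 5 at -0.27, is low for ACSL4 and high for GSS and GPX4, and the open point is far below the others for GPX4.

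Other genes of the pathway were counted in fixed lists. Of 13 genes of cysteine supply and use, 10 were tested and none passed at either dose, with medians of 0.03 and -0.03. SLC3A2, the partner subunit of SLC7A11 that carries it to the membrane, was 153 ± 19.2 CPM with vehicle, 227 ± 97.1 CPM with 10 mg/kg and 208 ± 50.9 CPM with 30 mg/kg (SD, n = 6 each). Without 10 mg/kg replicate 2 the level at that dose was 188 ± 15.7 CPM (SD, n = 5), below that at 30 mg/kg, and the log2 fold change was 0.30. The SLC3A2 log2 fold changes of 0.52 and 0.45 did not pass (edgeR adjusted p = 0.347 and 0.507). SQOR, a mitochondrial sulfide oxidase, was at 0.53 and 0.46 (edgeR adjusted p = 0.247 and 0.372). Of 17 genes of glutathione breakdown and recycling, 13 were tested and none passed, with medians of -0.03 and -0.05. GGT1, which cleaves extracellular glutathione, was at 0.40 and 0.46 (edgeR adjusted p = 0.324 and 0.204), and GLRX, glutaredoxin, at 0.18 and 0.49 (0.832 and 0.536). CHAC1 was thus the only gene of glutathione breakdown, among it, CHAC2 and the 13 tested here, that passed.

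Of 19 glutathione peroxidases, transferases and thioredoxin genes, 15 were tested and none passed, with medians of -0.03 and 0.06. TXNRD1, thioredoxin reductase, was at 0.04 and 0.31 (edgeR adjusted p = 0.935 and 0.299), and MGST3, a microsomal glutathione transferase, at 0.12 and 0.29 (0.859 and 0.785). Of 20 genes of the ubiquinone, tetrahydrobiopterin and selenoprotein arms, which act beside or upstream of AIFM2 and GPX4, 20 were tested and none passed, with medians of -0.07 and -0.02. DHODH, which reduces ubiquinone in mitochondria, was at -0.36 and -0.47 (edgeR adjusted p = 0.526 and 0.372). Of 18 iron genes, 16 were tested and none passed, with medians of -0.03 and 0.08. The smallest p-values of that list at 30 mg/kg belonged to STEAP3, an endosomal iron reductase, at -0.24 and -0.33 (edgeR adjusted p = 0.520 and 0.350), and HMOX1, which frees iron from haem, at 0.59 and 0.40 (0.163 and 0.493).

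Of 22 lipid genes linked to ferroptosis, 21 were tested, with medians of 0.05 and 0.12. SCD, the desaturase that makes monounsaturated fatty acids, was the 1 gene that passed at each dose. It was 961 ± 146 CPM with vehicle, 1828 ± 618 CPM with 10 mg/kg and 2180 ± 244 CPM with 30 mg/kg (SD, n = 6 each), with log2 fold changes of 0.93 and 1.18 (edgeR adjusted p = 0.0301 and 0.00225). All 6 libraries at 30 mg/kg, from 1944 to 2617 CPM, were above the highest vehicle library at 1230 CPM. In 10 mg/kg replicate 2 SCD was at 622 CPM and the other 5 were at 1866 to 2283 CPM. The SCD call was lost in 14 of 30 alternatives at 10 mg/kg and in 1 at 30 mg/kg.

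The regulators and their targets were counted apart from the 10 genes. None of the 14 regulators passed at either dose, with medians of 0.04 and 0.05. ATF4 mRNA was 373 ± 56.3, 490 ± 66.8 and 565 ± 126 CPM at vehicle, 10 and 30 mg/kg (SD, n = 6 each), with log2 fold changes of 0.39 and 0.60 (edgeR adjusted p = 0.347 and 0.0520). ATF3, a stress-induced factor of the same family, was at 0.51 and 0.63 (edgeR adjusted p = 0.288 and 0.0935). Of the 30 alternatives, ATF4 passed at 30 mg/kg in 11 and ATF3 in 6.

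Among 18 tested of 21 further ATF4 targets, 2 rose at 10 mg/kg and 4 at 30 mg/kg and none fell, with medians of 0.31 and 0.38. Upward calls made up 0.419% and 0.568% of all genes tested. The target list was also chosen with earlier results of these data known, so its counts beside these shares are a description. TRIB3, a pseudokinase, and CEBPG, a dimerisation partner of ATF4, rose at both doses, by log2 values of 0.72 and 0.78 and of 0.49 and 0.50 (edgeR adjusted p = 0.0153, 0.00307, 0.0194 and 0.00872). ASNS, asparagine synthetase, and SLC6A9, a glycine transporter, rose at 30 mg/kg by 0.85 and 0.79 (edgeR adjusted p = 0.00426 and 0.0363). The SLC6A9 call was lost in 14 of 30 alternatives and that of ASNS at 30 mg/kg in 1. For CEBPG the call was lost in 6 at 10 mg/kg and 1 at 30 mg/kg, and for TRIB3 in 2 and 0. None of the 17 tested of 20 NRF2 targets passed at either dose, with medians of 0.05 and 0.14. TXNRD1 and HMOX1 belong to that list too, and ME1, malic enzyme, was at 0.27 and 0.37 (edgeR adjusted p = 0.526 and 0.330). HMOX1 had the smallest adjusted p of the list at 10 mg/kg (0.59, edgeR adjusted p = 0.163) and was at 0.40 at 30 mg/kg (0.493). NRF2 itself (NFE2L2) was at -0.02 and 0.08.

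Of the further ATF4 targets, only the 4 that rose were searched for promoter matches. Targets that did not rise were not searched, so no link between a match and a rise was tested. TGATGNAA, the element core shown in capitals for CHAC1, occurs in 3.62% of all windows. It was found in ASNS (TGATGAAA, 68 bases before 1 of its starts) and CEBPG (TGATGCAA, 42 bases before 1 of its starts). The windows of TRIB3 and SLC6A9 did not hold it. TGACNNNGC, in 13.3% of all windows, was found in TRIB3 as GCCAGGTCA.

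Across all 18 libraries, the genes whose log2 CPM followed SLC7A11 most closely, of 12555 genes with a mean of at least 5 CPM, were CYP51A1, SOCS6, DCBLD2, RHOB and EMP1. CYP51A1, a cholesterol synthesis enzyme, led with Pearson r = 0.887 and Spearman rho = 0.926, and r = 0.884 without 10 mg/kg replicate 2. For the other 4 genes r was 0.843 to 0.882. For CHAC1 they were PCYT2, LMNA, SQSTM1, AARS1 and MARS1. PCYT2, which makes CDP-ethanolamine for phosphatidylethanolamine synthesis, led with r = 0.894 and rho = 0.847, and r = 0.896 without that library. For the other 4 genes r was 0.867 to 0.887, and AARS1 and MARS1 encode aminoacyl-tRNA synthetases. These values include the differences between doses and were the highest of many, and the libraries share depth and length balance, so they are descriptions. SLC7A11 and CHAC1 did not share a gene among these 5 and had r = 0.605 with each other over 18 libraries. As deviations from group means r was -0.419 over the 17 libraries other than 10 mg/kg replicate 2. Those group means were taken with that library included, so a part of the group difference can remain.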

How the data were processed

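Per the labels' protocols, Promega Maxwell RNA of 18 xenograft tumours went, at 5 ng each, into a stranded total RNA kit for pico input (Clontech SMARTer). The submitters' processing notes name STAR 2.4.2a, hg19 and mm10. The way human and mouse reads were told apart is not given in the sources used here. Values deposited by the authors are expected counts per human gene, unscaled, and TPM, scaled for transcript length, per the file headers. Symbols were matched by Entrez gene ID for 25220 of 25343 genes and by transcript accession for 26; 97 had none.

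Expected counts were rounded, filtered with filterByExpr (14074 genes kept), scaled by TMM and fitted over the 3 groups by robust quasi-likelihood (edgeR 4.0.16, R 4.3.3). The SE and 95% interval of each log2 fold change were worked back from that fit's estimate and F statistic, so they are approximate. Depth was 433989 to 8538793 counts per library, and counts under 10, which CHAC1, CHAC2, CTH and GCLM had in some libraries, give the coarsest values. Levels are CPM or deposited TPM, with SD over libraries. The 10 genes and all lists were chosen with earlier results of these data known. All 10 genes are named, with each list gene past the threshold in any comparison, otherwise up to 2 with the smallest p at 30 mg/kg, and for SLC7A11 and CHAC1 the 5 genes of highest Pearson r. NFE2L2, CBS and the single marker genes were picked after their values were seen. Alternatives used DESeq2 1.42.0 and limma 3.58.1, other scaling and filters, a replicate block, and libraries left out. The fit was also run on counts simulated from its own means, library sizes and spreads. Such counts cannot show the effect of an unlike library or of the length balance. A further list gene is not reported here. A planned comparison of protein sequences was not made. No 2 libraries held identical values. Replicate numbers did not pair the libraries (3 of 18 same-number pairs correlated above 0.1).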

Additional observations from a re-analysis of the deposited data

Results flagged for a closer look

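In 5 of 30 groups of 6 libraries (10 genes in 3 groups), 1 library stood apart from the other 5 by a gap above Dixon's 95% critical value; chance flags about 1 in 20 groups. Of these values, 3 came from the shallow 10 mg/kg replicate 2: GCLC at 66.3 CPM beside 27.7 to 40.2 CPM in the others, AIFM2 at 57.8 CPM beside 31.0 to 35.4 CPM, and GPX4 at 66.3 CPM beside 212 to 290 CPM. These rest on 31, 27 and 31 counts. CTH in 30 mg/kg replicate 5 was 9.04 CPM beside 4.79 to 5.75 CPM, and without the 3 least alike libraries its log2 fold change at 30 mg/kg was 0.24 in place of 0.38. GSS in vehicle replicate 3 was 115 CPM beside 68.7 to 84.9 CPM; that library had the lowest balance of long against short genes in its group, and the part of that balance in the value was not tested.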

How the results depend on the processing

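At 30 mg/kg against vehicle, 2 of the 10 genes passed in all 30 alternatives, CHAC1 at log2 values of 1.50 to 2.01 and SLC7A11 at 0.91 to 1.17. Between the doses 0 of the 10 genes and 0 of all genes passed in all 30. At 10 mg/kg the count of 1 became 2, CHAC1 and SLC7A11, with DESeq2 size factors, with at least 5 CPM in 6 libraries, with DESeq2's test, with voom sample weights and with the length balance as a covariate, and 0 with limma-trend on log2(TPM + 1) and with the replicate block; with 1 library left out it was 0 (without vehicle replicate 5) to 2 (without vehicle replicate 4, 10 mg/kg replicate 1 or 2, or 30 mg/kg replicate 3, 4 or 5). SLC7A11 at 10 mg/kg ranged from 0.58 to 0.88, with adjusted p from 0.00713 to 0.415.

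The count over all genes at 10 mg/kg (66) was 32 with no filter, 158 with DESeq2, 227 with voom sample weights, 12 on TPM, 36 from the groups compared alone, 24 with the replicate block and 103 with the length covariate. With 1 library left out it was 31 (vehicle replicate 5) to 121 (10 mg/kg replicate 2), with 42 and 40 without vehicle replicates 1 and 2. At 30 mg/kg (87) it was 57 with no filter, 179 with DESeq2, 285 with voom sample weights, 23 on TPM, 191 from the groups compared alone, 223 without the 3 least alike libraries and 141 with the length covariate, and 61 to 182 (without 10 mg/kg replicate 2) with 1 library left out. The causes were not tested.

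Of 900 values of the 10 genes, 886 kept their direction or stayed without a call, 3 lost the call (CHAC1 at 10 mg/kg), 11 gained it (SLC7A11 at 10 mg/kg) and 0 called values changed sign; 54 uncalled values did. Same-number libraries correlated at -0.28 to 0.22, so the block pairs by number only; with it CHAC1 at 10 mg/kg was 1.51 (edgeR adjusted p = 0.0949). The last 2 alternatives, the 3 libraries left out together and the length covariate, were chosen after seeing the data. Depth limits CHAC1, CHAC2, CTH and GCLM, each with under 10 counts in at least 1 library.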
